A study of Mus musculus with 12 samples.

Results

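The interferon-inducible GTPases described here are 10 genes of the immunity-related GTPase (IRG) and guanylate-binding protein (GBP) families, out of 21638 genes in the deposited table: Igtp, Irgm1, Irgm2, Iigp1, Gm4841, Tgtp2, Gbp2, Gbp3, Gbp6 and Gbp7. They were picked by name from earlier results of the same libraries, with their levels in the groups known. Those levels chose the genes, so the members' levels and differences between groups are given below as descriptions. Where the members called in the fit across all genes are counted, the count restates that choice and is not a test of it. All 10 passed the filter on low values (10 counts on average) and entered the fit across 12577 genes, with mean counts from 38.5 (Gm4841) to 36351 (Tgtp2).

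RNA came from endothelial cells of the adult mouse brain cortex, isolated by flow cytometry as CD31+ CD41- CD45- cells, a gate that takes endothelium and leaves out platelets and leukocytes. Of the 12 libraries, 3 were labelled wild type (WT), 3 Hdac2 ECKO (Hdac2lox/lox:Cdh5CreERT2, loss of a histone deacetylase), 3 Ezh2 ECKO (Ezh2lox/lox:Cdh5CreERT2, loss of a Polycomb methyltransferase) and 3 beta-catenin GOF (Ctnnb1lox/lox:Cdh5CreERT2, a constitutively active beta-catenin). Cdh5CreERT2 is a tamoxifen-inducible Cre recombinase driven by the Cdh5 promoter, which is active in endothelium of all organs. The mutant mice received 5 doses of tamoxifen at 75 mg/kg and brains were taken after 2 months. Whether WT mice carried Cre or lox alleles or received tamoxifen, exact ages, and whether each library came from its own animal are not given in the sources used here, so p-values measure only the spread between these libraries.

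IRG and GBP proteins are GTPases that cells make in response to interferon, most of all interferon-gamma, through the receptor chains Ifngr1 and Ifngr2, the kinases Jak1 and Jak2, and transcription factors such as Irf1. Effector IRG proteins such as Iigp1 and Tgtp2 load onto the membrane of the vacuole that holds an intracellular parasite or bacterium and break it. The regulators Irgm1, Irgm2 and Igtp keep the effectors inactive on the cell's own membranes, GBP proteins join the attack on the vacuole, and loading depends on the conjugation machinery of autophagy. Interferon acts on DNA through the gamma-activated sequence (GAS) and the interferon-stimulated response element (ISRE), and Irf proteins bind the latter.

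Library totals ran from 24781070 to 36109975 counts, and a floor of 3 counts stood at 0.0791 to 0.118 CPM (counts per 1000000, after TMM scaling of the library totals). Summed endothelial markers (12 genes, none at 0 in WT replicate 2) ran from 20566 to 25503 CPM in WT, 19841 to 24221 CPM in the libraries labelled Ezh2 ECKO and 22129 to 24611 CPM in beta-catenin GOF, and from 17078 to 18777 CPM in Hdac2 ECKO, below every other library. The part of this difference in the Hdac2 ECKO comparison was not tested. Ezh2 itself stood at 8.92 ± 3.35 CPM (SD, n = 3) in the libraries labelled Ezh2 ECKO against 6.75 ± 3.52 CPM in WT (n = 3). WT replicate 2 was the lowest of the 12 libraries at 2.69 CPM, and WT replicates 1 and 3 averaged 8.78 CPM. The deletion was thus not visible at the level of the whole gene. The group is called the libraries labelled Ezh2 ECKO, or the Ezh2-labelled libraries, throughout. Hdac2 was 96.5 ± 15.2 CPM against 129 ± 30.1 CPM in WT (edgeR log2 fold change −0.42, SE 0.24, adjusted p = 0.225). A whole-gene count cannot check the Ctnnb1 allele.

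WT replicate 2 stood apart from the other 11 libraries in these genes. The members' log2 fold changes against WT are therefore summarized with and without it. For other genes the value without it is given only where stated. Its 10 GTPases held 1.78% of all counts, against 0.0554% to 0.195% in the other libraries. All 10 were highest in WT replicate 2, where 7.54% of tested genes were. All 10 stood at 4 times or more the median of the other 11 libraries, as did 223 genes or 1.77% of those tested. Each ratio of this kind is a fact of 1 library, with no replicate.

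**Figure D1:**
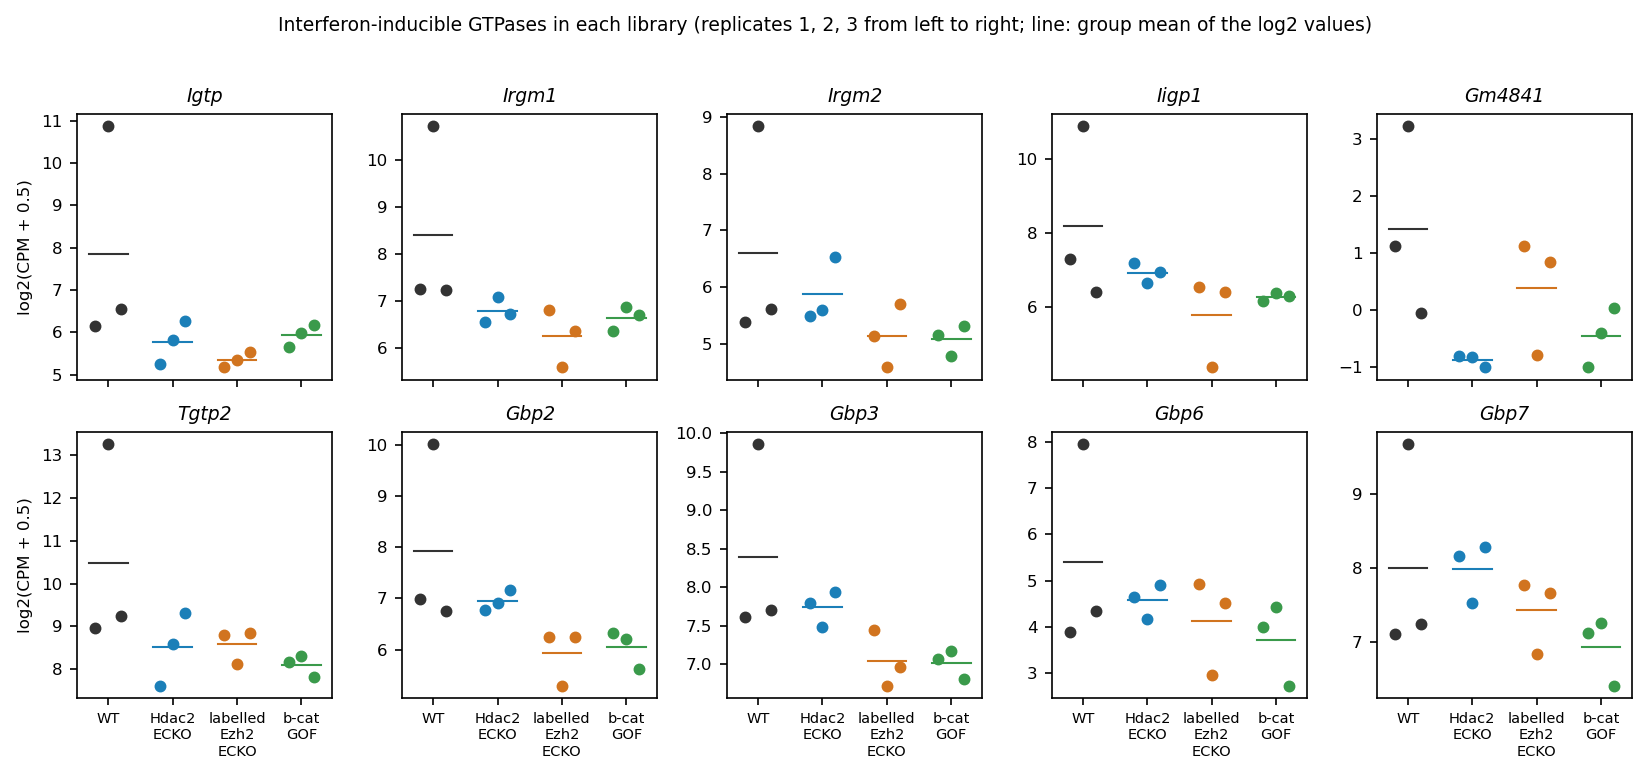
Level of each GTPase in the 12 libraries. The vertical axis is log2(CPM + 0.5), points are libraries with replicates 1 to 3 from left to right, and lines are means of the log2 values. WT replicate 2 is the highest point in all 10 panels, while the other WT libraries lie near the mutant libraries.

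Sequences near the start of the members are shown because the interferon response acts through the letters they hold. Windows of 250 bases before the RefSeq start (GRCm38.p6) were searched on both strands, overlaps allowed, for GAS as TTCNNNGAA and ISRE as GAAA, any 2 bases and GAAA. Of the 10 genes 7 had an entry, with 8 windows since Gbp3 has 2. An ISRE match was present in 7 of the 8 windows and a GAS match in 4, and the same 4 held both. Of all 32851 windows 2.98% held an ISRE match, 7.02% a GAS match and 0.332% both. RefSeq and GENCODE starts differ for some genes: all 250 bases of the Irgm1 window, 61 of the Gbp2 window and 18 and 178 of the Gbp3 windows lie in GENCODE exons. The Irgm2 window holds 0 bases of GENCODE exons but lies inside the gene. The Irgm1, Irgm2 and Gbp2 ISRE stretches thus lie in or reach into the gene as given below. A match describes the letters and does not show a bound factor. The 30 bases around the ISRE match are printed 5′ to 3′ on the gene's strand, with matched letters in capitals. An ISRE on the opposite strand reads as TTTC, any 2 bases and TTTC.
Igtp: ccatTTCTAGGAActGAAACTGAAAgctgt
Irgm2: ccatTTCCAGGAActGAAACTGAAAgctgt
Tgtp2: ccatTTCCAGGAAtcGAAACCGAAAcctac
Irgm1: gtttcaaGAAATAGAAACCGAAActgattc
Gbp2: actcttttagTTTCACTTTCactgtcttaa
Gbp3: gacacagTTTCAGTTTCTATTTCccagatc
Gbp7: gtgtgtgcagTTTCAGTTTCagttctccat

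These stretches lie at chr11:58199507-58199536 (plus strand) for Igtp, chr11:58214898-58214927 (plus) for Irgm2, chr11:49064268-49064297 (minus) for Tgtp2 and chr11:48871428-48871457 (minus) for Irgm1. Those of the GBP genes lie on the plus strand at chr3:142620594-142620623 (Gbp2), chr3:142559992-142560021 (Gbp3) and chr3:142530273-142530302 (Gbp7). In Igtp, Irgm2 and Tgtp2 the GAS match comes first and the ISRE match begins after 2 further bases. That arrangement was noticed in these sequences and then counted: 5 of 32851 windows (0.0152%) held it, those of Igtp, Irgm2, Tgtp2 and the family genes Tgtp1 and Gm12185. The 5 genes are related copies, so their windows are not independent. Irgm1 and Gbp3 each hold a pair of overlapping ISRE matches. The whole windows of Igtp (chr11:58199306-58199555, plus), Tgtp2 (chr11:49064213-49064462, minus) and Gbp7 (chr3:142530086-142530335, plus) are given to show where the matches sit relative to the start, which follows the last base; Gbp7 has 2 GAS matches apart from its ISRE.
Igtp: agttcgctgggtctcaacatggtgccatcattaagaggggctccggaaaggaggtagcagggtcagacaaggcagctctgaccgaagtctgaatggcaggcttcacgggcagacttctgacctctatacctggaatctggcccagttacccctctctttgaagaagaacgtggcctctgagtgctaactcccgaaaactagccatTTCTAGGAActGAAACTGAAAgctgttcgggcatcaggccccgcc
Tgtp2: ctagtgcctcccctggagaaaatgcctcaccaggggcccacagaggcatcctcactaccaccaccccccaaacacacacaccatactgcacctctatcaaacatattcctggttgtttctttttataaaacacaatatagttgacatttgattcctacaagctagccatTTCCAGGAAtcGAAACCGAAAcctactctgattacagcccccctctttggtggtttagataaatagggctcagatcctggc
Gbp7: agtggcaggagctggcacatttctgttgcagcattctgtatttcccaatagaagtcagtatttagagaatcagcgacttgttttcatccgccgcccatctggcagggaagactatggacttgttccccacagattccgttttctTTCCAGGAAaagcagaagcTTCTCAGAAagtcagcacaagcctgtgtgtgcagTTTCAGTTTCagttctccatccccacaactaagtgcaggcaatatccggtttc

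Among the regulatory IRG genes, Igtp (ENSMUSG00000078853.8, chr11:58199556-58207591, plus strand) encodes the protein also called Irgm3. Its level in WT replicates 1, 2 and 3 was 70.0, 1865 and 92.5 CPM. In the mutants it was 37.9, 55.7 and 76.4 CPM (Hdac2 ECKO), 35.5, 40.0 and 45.8 CPM (Ezh2-labelled) and 49.5, 62.7 and 71.9 CPM (beta-catenin GOF). WT replicate 2 was 20.2 times the highest other library, and the Ezh2-labelled libraries lay below all 3 WT libraries, while the other mutant groups overlapped WT.

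Irgm1 (ENSMUSG00000046879.7, chr11:48861968-48871683, minus strand), a regulator also needed for autophagy of mycobacteria, was at 153, 1695 and 150 CPM in WT. Hdac2 ECKO libraries were at 92.8, 136 and 105 CPM, Ezh2-labelled libraries at 111, 47.5 and 81.3 CPM, and beta-catenin GOF at 81.4, 116 and 104 CPM. Irgm1 was the member whose WT libraries, replicate 2 or not, lay above every mutant library. Irgm2 (ENSMUSG00000069874.7, chr11:58199618-58222782, plus strand) was at 41.3, 455 and 48.6 CPM in WT, and at 44.8, 47.8 and 91.7 CPM in Hdac2 ECKO. It was at 34.9, 23.6 and 52.0 CPM in the Ezh2-labelled libraries and 35.3, 27.2 and 39.4 CPM in beta-catenin GOF. Outside WT replicate 2, its highest library was Hdac2 ECKO replicate 3, and the beta-catenin GOF libraries were below all WT libraries. The Igtp and Irgm2 gene models overlap on the same strand, so reads could be split between them in the authors' counting and their separate levels are uncertain.

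Iigp1 (ENSMUSG00000054072.12, chr18:60376027-60392634, plus strand), the effector also called Irga6, stood at 157, 1893 and 84.3 CPM in WT and 145, 99.0 and 123 CPM in Hdac2 ECKO. The Ezh2-labelled libraries had 93.1, 20.1 and 84.4 CPM and beta-catenin GOF 71.7, 82.3 and 77.5 CPM. Ezh2-labelled replicate 2 was the lowest, the beta-catenin GOF libraries lay below all WT libraries, and WT replicates 1 and 3 differed between themselves by more than the 3 beta-catenin GOF libraries did.

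Tgtp2 (ENSMUSG00000078921.3, chr11:49057194-49064206, minus strand), the effector also called Irgb6, had the highest levels: 498, 9736 and 609 CPM in WT and 196, 384 and 640 CPM in Hdac2 ECKO. It was at 444, 277 and 458 CPM in the Ezh2-labelled libraries and 288, 319 and 225 CPM in beta-catenin GOF, all 6 below the lowest WT library. The near-identical copy Tgtp1 followed it, with Tgtp2 at 1.10 to 1.20 times Tgtp1 in every library. Multiply placed reads may have been shared between the copies, so their sum is the safer measure: it held 1.74% of the counts of WT replicate 2 and 0.0400% to 0.130% elsewhere. Tgtp2 also overlaps Olfr56 on the opposite strand, and whether strand was used in counting is not given.

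Gm4841 (ENSMUSG00000068606.6, chr18:60268305-60273272, minus strand), an IRG gene known by its model name, was near the floor. Its counts were 48, 279 and 13 in WT against 2, 2 and 0 in Hdac2 ECKO. They were 52, 2 and 36 in the Ezh2-labelled libraries and 0, 10 and 18 in beta-catenin GOF. The 3 Hdac2 ECKO libraries were all under the floor of 3 counts per library (0.105 CPM on average in these libraries). The WT mean was 34.8 times that floor, or 10.1 times without WT replicate 2. These values are not lower bounds of the difference, since the floor is the limit for a count of 0 and a count of 2 allows more. In the other mutant groups libraries of the same label ranged from 2 to 52 counts (Ezh2-labelled) and from 0 to 18 (beta-catenin GOF), so those groups overlapped WT.

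The 4 GBP genes stood less far above the median of the other libraries in WT replicate 2 than 5 of the 6 IRG genes did. Against the highest other library, Gm4841 (5.24) and Irgm2 (4.96) were below Gbp6 (8.20) and Gbp2 (7.27). They were above Gbp3 (3.78) and Gbp7 (2.63). Gbp2 (ENSMUSG00000028270.12, chr3:142620602-142638008, plus strand), a GBP that gathers on parasite vacuoles, stood at 127, 1030 and 107 CPM in WT and 109, 119 and 142 CPM in Hdac2 ECKO. It stood at 75.8, 38.8 and 75.5 CPM in the Ezh2-labelled libraries and 79.9, 73.6 and 48.7 CPM in beta-catenin GOF. These 6 libraries lay below all WT libraries, whereas Hdac2 ECKO overlapped them. Gbp3 (ENSMUSG00000028268.14, chr3:142560026-142573209, plus strand) stood at 195, 926 and 207 CPM in WT and 222, 178 and 245 CPM in Hdac2 ECKO. Its level was 173, 105 and 124 CPM in the Ezh2-labelled libraries and 133, 144 and 111 CPM in beta-catenin GOF, again below all WT libraries.

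Gbp7 (ENSMUSG00000040253.15, chr3:142530342-142550149, plus strand), described in antibacterial defence of macrophages, was at 137, 818 and 151 CPM in WT. The Hdac2 ECKO libraries had 286, 184 and 311 CPM; it was at 219, 114 and 203 CPM in the Ezh2-labelled libraries and 139, 153 and 84.6 CPM in beta-catenin GOF. All 3 Hdac2 ECKO libraries were above WT replicates 1 and 3 and below WT replicate 2. Gbp6 (ENSMUSG00000104713.4, chr5:105270702-105293698, minus strand) was at 14.4, 245 and 19.8 CPM in WT and 24.6, 17.6 and 29.5 CPM in Hdac2 ECKO. It was at 29.8, 7.36 and 22.3 CPM in the Ezh2-labelled libraries and 15.6, 21.2 and 6.18 CPM in beta-catenin GOF. All groups overlapped for Gbp6, which shares its locus on the same strand with the model Gm43302, so its own level is uncertain.

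On a scale per gene length (CPM per kilobase), the median over the 11 libraries other than WT replicate 2 put Tgtp2 first at 131 (range 66.7 to 218), then Gbp3 at 53.1 (32.2 to 75.1), Gbp2 at 31.8 (15.4 to 56.3), Igtp at 27.5 (17.5 to 45.8) and Gbp7 at 27.3 (15.1 to 55.4). Irgm1 followed at 18.0 (8.18 to 26.4), Iigp1 at 14.5 (3.45 to 27.0), Irgm2 at 11.2 (6.41 to 24.9), Gbp6 at 3.32 (1.04 to 5.01) and Gm4841 at 0.0929 (0 to 0.593). The ranges of all neighbours in this order overlapped, except those of Irgm2 and Gbp6 and of Gbp6 and Gm4841. The order by ratio in WT replicate 2 to the median of the other 11 differed: Igtp and Gm4841 at 33.5, Tgtp2 25.4, Iigp1 22.4, Irgm1 16.2, Gbp2 12.9, Gbp6 12.4, Irgm2 11.0, and Gbp3 and Gbp7 at 5.34. The ratio of Gm4841 rests on a median of 0.264 CPM, near the floor.

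Against WT with all libraries, the 10 members had negative log2 fold changes in each mutant group. Their median was −2.25 in Hdac2 ECKO, −2.52 in the Ezh2-labelled libraries and −2.71 in beta-catenin GOF, beside medians over all genes of 0.10, 0.05 and 0.01. In edgeR's quasi-likelihood fit across all genes, 4 of 10 were among the genes called lower at an adjusted p of 0.05 in Hdac2 ECKO (Igtp, Irgm1, Gm4841 and Tgtp2; 5.38% of all genes), 1 in the Ezh2-labelled libraries (Igtp; 0.684%) and 0 in beta-catenin GOF (0%). In beta-catenin GOF 10 had an unadjusted p under 0.05, as did 6.07% of all genes, and DESeq2 called 1 of the 5 that it gave an adjusted p (0.303%). Groups did not overlap, with the mutant lower, for 2 members in Hdac2 ECKO (18.2% of all genes), 5 in the Ezh2-labelled libraries (10.9%) and 6 in beta-catenin GOF (5.87%). These counts restate the levels by which the genes were picked, and the 3 comparisons share the same WT libraries. In such bulk samples fewer cells that express a gene and less RNA per cell cannot be told apart.

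Without WT replicate 2 the members' differences lay nearer 0 or changed sign, except that Gm4841 in Hdac2 ECKO stayed far below 0. The members' median was 0.04 in Hdac2 ECKO, −0.54 in the Ezh2-labelled libraries and −0.62 in beta-catenin GOF, beside 0.10, 0.06 and 0.02 over all genes. In Hdac2 ECKO 4 members had negative log2 fold changes, the lowest being the −4.39 fitted for Gm4841, which depends on the prior count. The 6 positive ones were Irgm2 (0.45, SE 0.39), Iigp1 (0.02, SE 0.48), Gbp2 (0.07, SE 0.33), Gbp3 (0.10, SE 0.28), Gbp6 (0.48, SE 0.54) and Gbp7 (0.85, SE 0.36). Placing Gm4841 in Hdac2 ECKO at the floor of 3 counts left both Hdac2 ECKO medians at −2.25 and 0.04. In the Ezh2-labelled libraries 8 were negative, led by Igtp (−1.01, SE 0.32), and Gbp6 (0.21, SE 0.54) and Gbp7 (0.31, SE 0.35) were positive. In beta-catenin GOF all 10 were negative, from −1.99 (Gm4841, SE 1.49) to −0.20 (Gbp7, SE 0.35), with Iigp1 at −0.65 (SE 0.47) and Gbp2 at −0.79 (SE 0.33). Of the 10, edgeR then called 0 in each comparison, with 2 (25.4% of all genes), 3 (17.0%) and 3 (4.29%) at an unadjusted p under 0.05, and DESeq2 called 0 of the 9, 10 and 10 that it gave an adjusted p. The loss of a library also lowered calls elsewhere: of all genes 0, 2 (0.0159%) and 0 were then called by edgeR, and 1297 (14.9%), 359 (2.92%) and 22 (0.175%) by DESeq2.

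**Figure D2:**
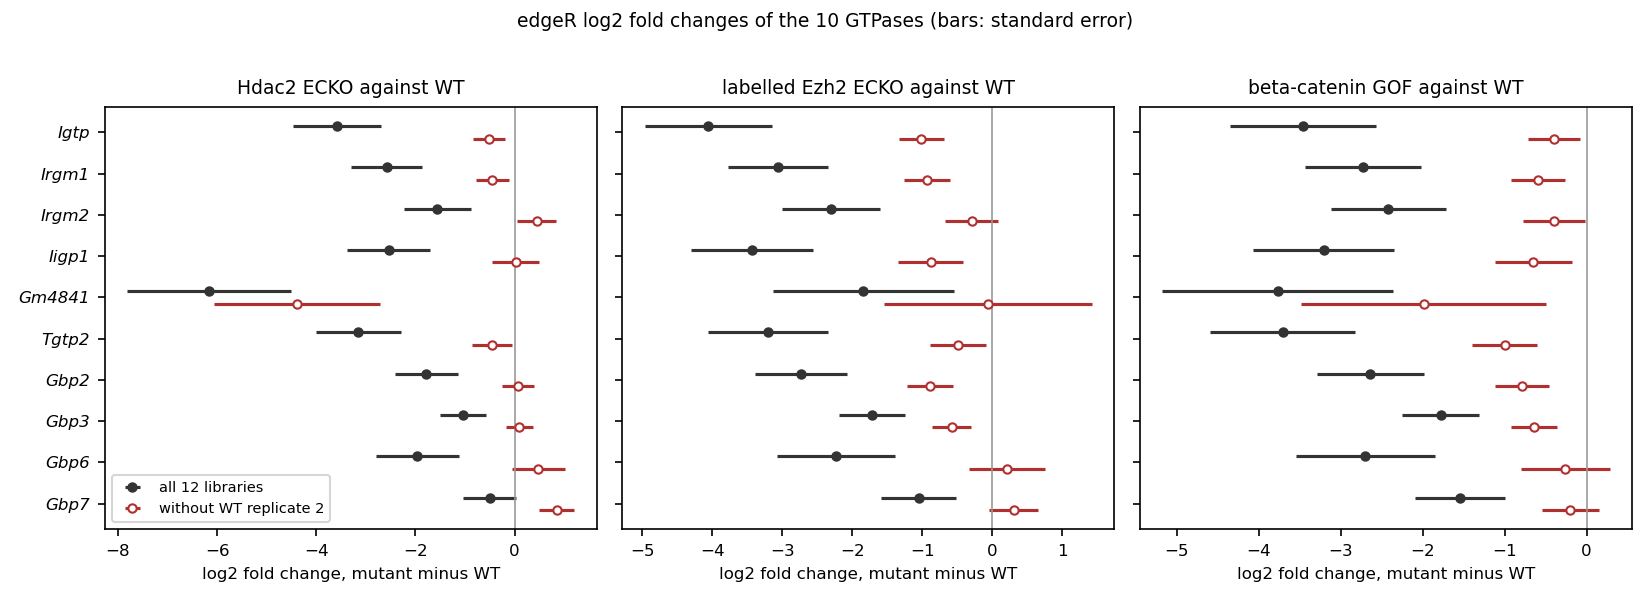
Log2 fold change of each GTPase against WT in the 3 mutant groups, from edgeR. Filled points use all 12 libraries, open points leave out WT replicate 2, and bars are standard errors; each panel has its own scale. The filled points are all below 0, and the open points lie nearer 0 for every gene in every panel except Gbp7 in Hdac2 ECKO, which moves from −0.50 to 0.85; the value of Gm4841 in Hdac2 ECKO rests on counts at or under 3 and depends on the fit.

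Other libraries decided calls too, over the whole table as well as among the members. Of 1157 genes and 4 members called in Hdac2 ECKO, 0 genes were called without WT replicate 1 or Hdac2 ECKO replicate 3 and 1 gene, no member, without Hdac2 ECKO replicate 1, against 1868 genes and 7 members without WT replicate 3. Of 129 genes and 1 member called in the Ezh2-labelled libraries, 2 genes were called without WT replicate 1 and 4 and 7 without Ezh2-labelled replicates 1 and 3, with no member among them. They were 2328 genes and 4 members without Ezh2-labelled replicate 2, and 1138 genes and 7 members without WT replicate 3.

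The other 11 libraries were not alike. On log2(CPM + 0.5) values centred for each gene over the 11, the members' mean was 0.38 and 0.31 in WT replicates 1 and 3 and 0.07, 0.10 and 0.51 in Hdac2 ECKO. It was 0.20, −0.89 and 0.11 in the Ezh2-labelled libraries and −0.29, −0.09 and −0.40 in beta-catenin GOF. Ezh2-labelled replicate 2 was below the 11-library median for all 10 members and lowest for 5. Hdac2 ECKO replicate 3 was highest for 5, and beta-catenin GOF replicates 1 and 3 were below the median for 9 and 8.

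**Figure D3:**
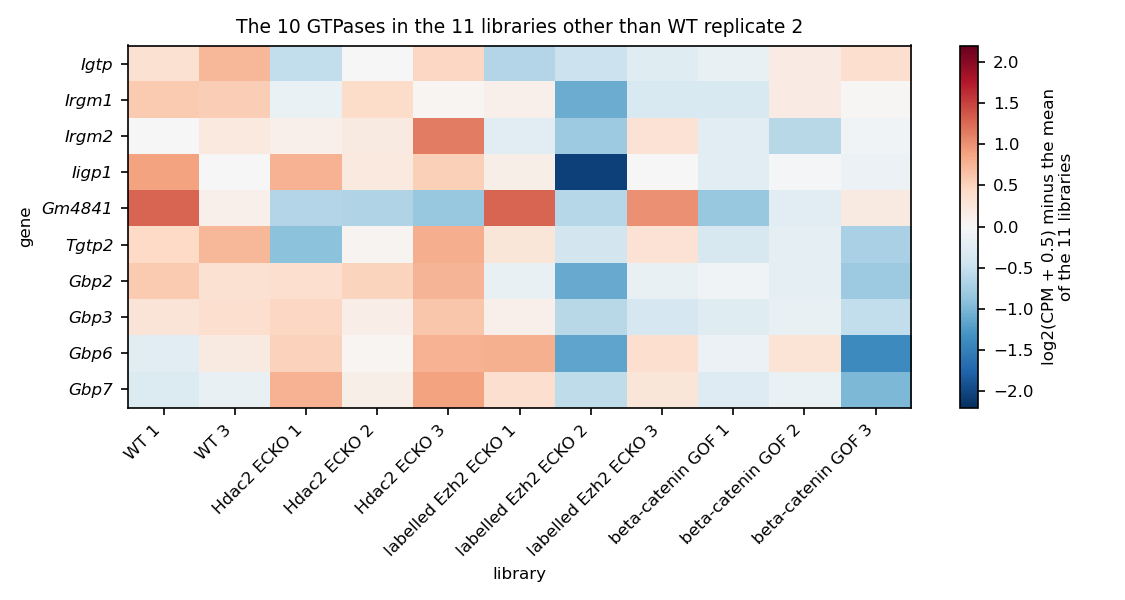
Heat map of log2(CPM + 0.5) of the 10 GTPases (vertical) in the 11 libraries other than WT replicate 2 (horizontal), as the difference from each gene's mean over those libraries. Ezh2-labelled replicate 2 is below the mean for all 10 genes, and Gbp6 and Gbp7 lie below it in WT replicate 1 where Iigp1 and Gm4841 lie above.

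Over all 12 libraries, Pearson's r between members on log2 values had a median of 0.89 over 45 pairs (0.56 to 0.98). Over the 11 libraries without WT replicate 2 the median was 0.48, from −0.25 for Igtp and Gbp7 to 0.91 for Gbp2 and Gbp3. All pairs share their libraries, and much of the 12-library likeness rested on 1 of them.

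The 10 genes lie in 5 clusters of family genes, and the high level in WT replicate 2 was seen at all of them. Of 24 tested family genes in these clusters 21 stood at 4 times or more the median of the other libraries. That count includes the 10 members, which were picked with their levels known. Of the 15 other family genes tested, among them Irgq outside these clusters, 11 stood there. Among 38 tested neighbours of other kinds within 500 kb, 3 did. Those 3 were Olfr56 (8.57), which overlaps Tgtp2, Gm43302 (13.1), which overlaps Gbp6, and Cd74 (56.2), the MHC class II invariant chain gene near Iigp1. Cd74 was also at 11.9 and 21.6 CPM in WT replicates 1 and 3, against at most 2.93 CPM in the mutant libraries. The neighbours' median ratio was 0.946 at Igtp and Irgm2 (chr11:58199556-58222782) and 1.12 at Irgm1 and Tgtp2 (chr11:48861968-49096974). It was 1.28 at Iigp1 and Gm4841 (chr18:60212080-60392634), 0.996 at Gbp2, Gbp3 and Gbp7 (chr3:142493978-142638008) and 0.988 at Gbp6 (chr5:105014150-105293698).

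**Figure D4:**
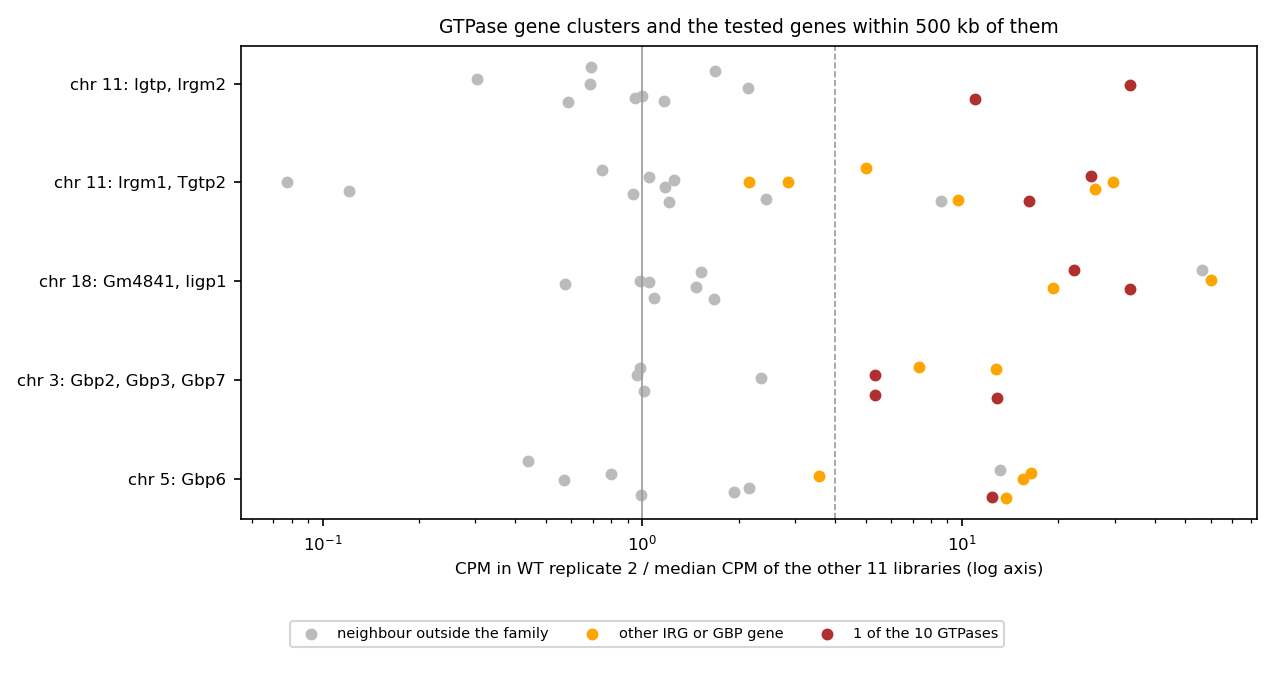
Ratio of CPM in WT replicate 2 to the median of the other 11 libraries (log axis) for each tested gene in or near the 5 clusters, with a row per cluster. Height within a row has no meaning, the solid line is at 1 and the dashed line at 4. Members and most other family genes lie at 4 or more, and 35 of the 38 flanking genes lie below 4.

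Of 18 other IRG and GBP genes listed, 16 were in the table and 15 were tested. Tgtp1, the highest of them, was at 442, 8516 and 518 CPM in WT, and 11 of the 15 stood at 4 times or more in WT replicate 2, with a median ratio of 12.8. These 11 include F830016B08Rik, Gbp2b and Gm5431, whose medians over the other libraries were low, at 0.106, 0.104 and 0.614 CPM. Gbp2b, whose own ratio was 12.8, was not highest in WT replicate 2 but at rank 4. Irgq, an IRG gene not known for interferon induction, had the lowest ratio at 0.205. In Hdac2 ECKO 3 were lower by edgeR, beside 5.38% of all genes: Tgtp1 (log2 −3.19, adjusted p = 0.0394), Gm12185 (−3.31, adjusted p = 0.0384) and Ifi47 (−2.12, adjusted p = 0.0416). None was called in the other comparisons, nor in any without WT replicate 2, where the 3 values were −0.47, −0.54 and −0.42. Gbp2b stood out by 1 library, chosen here after its values were seen: 845 counts in beta-catenin GOF replicate 3, against 134 or fewer elsewhere. The large interferon-inducible GTPases Gvin1 and Gm4070, near-identical models, had ratios of 5.48 and 5.53, and Gm4070, the higher, stood at 475 ± 534 CPM in WT (SD, n = 3).

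Ligands were almost undetected: Ifng had 0 counts in 11 libraries, WT replicate 2 among them, and 4 counts in Ezh2-labelled replicate 3, and Ifnb1 had 0 in all 12. A count of 0 allows up to 3 counts, 0.0950 CPM in WT replicate 2. Il18, the only ligand-list gene tested, was at 35.1 ± 7.49 CPM in WT, and its ratio in WT replicate 2 was 1.22.

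Of 19 tested genes for receptors and signalling, 4 stood at 4 times or more in WT replicate 2, among them Socs1 (10.6), a feedback inhibitor, and the transcription factors Irf1 (5.92) and Batf2 (5.71). These ratios are to a median of mostly mutant libraries, and for some genes other WT libraries were high too. Socs1 was at 15.5, 16.8 and 6.91 CPM in WT replicates 1, 2 and 3, against at most 3.23 CPM in the mutant libraries. WT replicate 2 was 1.08 times the highest other library for Socs1, 1.67 times for Irf1 and 3.04 times for Batf2. The receptor and kinase genes had lower ratios to the median: Ifngr1 had 1.31, Ifngr2 1.53, Jak1 0.791 and Jak2 0.976. Ifnar2, a type I receptor chain with the list's highest level, had 1.21.

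In Hdac2 ECKO 5 of the 19 were lower (Ifngr1, Irf1, Batf2, Socs1 and Usp18), beside 5.38% of all genes, and 1 higher (Ptpn11, a phosphatase). Irf1 was at 137, 228 and 50.9 CPM in WT and 38.6, 35.9 and 40.7 CPM in Hdac2 ECKO (edgeR log2 −1.85, SE 0.39, adjusted p = 0.0323). All 3 Hdac2 ECKO libraries were below the lowest WT library, and without WT replicate 2 the difference was −1.29 (adjusted p = 0.0997). Ifngr1, at 122, 82.4 and 77.9 CPM in WT and 26.5, 46.6 and 42.9 CPM in Hdac2 ECKO, fell by 1.28 on the log2 scale (edgeR adjusted p = 0.0401). Its value without WT replicate 2 was −1.37, with an adjusted p of 0.101. Socs1 had −3.29 with all libraries and −3.07 without. Ifngr2 (−0.92), Jak1 (0.48) and Jak2 (0.69) did not pass.

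In the Ezh2-labelled libraries, Irf1 (−2.23), Socs1 (−2.82) and Usp18 were lower, beside 0.684% of all genes. Without WT replicate 2 these genes were at −1.67, −2.59 and −0.94, and none was called. Ifngr1 was at −1.10 (edgeR adjusted p = 0.0873), Ifngr2 at −1.01, Jak1 at 0.43 and Jak2 at 0.16. In beta-catenin GOF none of the 19 passed, with Irf1 at −1.59 (edgeR adjusted p = 0.404), Ifngr1 at −0.41, Ifngr2 at −0.12, Jak1 at 0.35 and Jak2 at 0.23. Irf1 was at −1.03 there without WT replicate 2.

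Of 30 tested interferon-gamma targets outside the GTPases, 13 stood at 4 times or more in WT replicate 2, with a median ratio of 2.70. They include the MHC class II genes H2-Ab1 (56.9) and Cd74 (56.2), the checkpoint ligand Cd274 (16.5) and the chemokine Cxcl10 (19.4). Cd74 was high in all 3 WT libraries, at 11.9, 42.2 and 21.6 CPM, against at most 2.93 CPM in the mutant libraries. WT replicate 2 was 1.95 times the highest other library for Cd74, 4.85 times for H2-Ab1, 10.3 times for Cd274 and 4.84 times for Cxcl10. B2m, the highest in level, had a ratio to the median of 1.82. In Hdac2 ECKO 7 of the 30 were lower, in the Ezh2-labelled libraries 1 (Serpina3g) and in beta-catenin GOF 0, beside 5.38%, 0.684% and 0% of all genes. Of 30 tested type I interferon-stimulated genes 4 stood at 4 times or more, with a median of 2.23, and 12, 4 and 0 were lower in the 3 comparisons, beside the same shares of all genes. Irf7, which amplifies the type I response, was at 114, 184 and 47.0 CPM in WT and 15.4, 19.8 and 14.8 CPM in Hdac2 ECKO (edgeR log2 −2.78, adjusted p = 0.0323). It was −2.27 without WT replicate 2 (adjusted p = 0.0911), and in the Ezh2-labelled libraries it was −2.52 (adjusted p = 0.0360) and −2.01. Over all lists, Lgals9 (−1.89), Ifit3b (−2.19), Isg15 (−1.72) and Usp18 (−1.35) were also among the smallest p-values in Hdac2 ECKO, and Ifit3 (−2.04), Ifit3b (−1.94) and Oasl2 (−1.80) in the Ezh2-labelled libraries. Ifi27, the highest in level of the type I list, was at 588 ± 136 CPM in WT, with a ratio of 1.43. The 11 tested autophagy conjugation genes stayed under 4 times, with a median ratio of 1.09, which was also the ratio of Gabarapl2, the highest in level. In Hdac2 ECKO 3 of them, Atg5 (−0.90), Map1lc3a (−1.68) and Gabarap (−1.32), were lower, beside 5.38% of all genes. Without WT replicate 2 these values were −0.96, −1.67 and −1.23, and edgeR called 0 of all genes in that comparison.

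Over the listed interferon genes outside the members together, 97 were tested. In Hdac2 ECKO 28 were called (9.20% of all genes called in either direction), in the Ezh2-labelled libraries 8 (1.03%) and in beta-catenin GOF 0 (0%). For beta-catenin GOF 45 had an unadjusted p under 0.05, as did 6.07% of all genes. DESeq2 called 6 of the 94 that it gave an adjusted p there, beside 0.303% of all genes. Between the mutant groups, a test of any difference called 13 genes (0.103%) and 0 of the listed ones. There 14 of these had an unadjusted p under 0.05, as did 16.9% of all genes, and DESeq2 called 2 of 94 (1.97% of all genes). Without WT replicate 2 edgeR called 0 in each comparison against WT. The 27 listed genes called lower in Hdac2 ECKO and the 8 in the Ezh2-labelled libraries, chosen by fits that share these libraries, then had negative values, and Ptpn11, called higher in Hdac2 ECKO, had 1.26. The 28 listed calls in Hdac2 ECKO were also 0 without WT replicate 1, Hdac2 ECKO replicate 1 or Hdac2 ECKO replicate 3. The 8 in the Ezh2-labelled libraries were 0 without WT replicate 1 or Ezh2-labelled replicates 1 or 3, 26 without WT replicate 3 and 32 without Ezh2-labelled replicate 2. Over all tested genes of a list, the median log2 fold change in Hdac2 ECKO without WT replicate 2 was 0.12 for the other IRG and GBP genes, −0.43 for receptors and signalling, −0.37 for interferon-gamma targets and −0.73 for type I genes. In the Ezh2-labelled libraries these medians were −0.30, −0.16, −0.27 and −0.37, and the medians over all genes were 0.10 and 0.06. These lists were written with earlier results known.

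**Figure D5:**
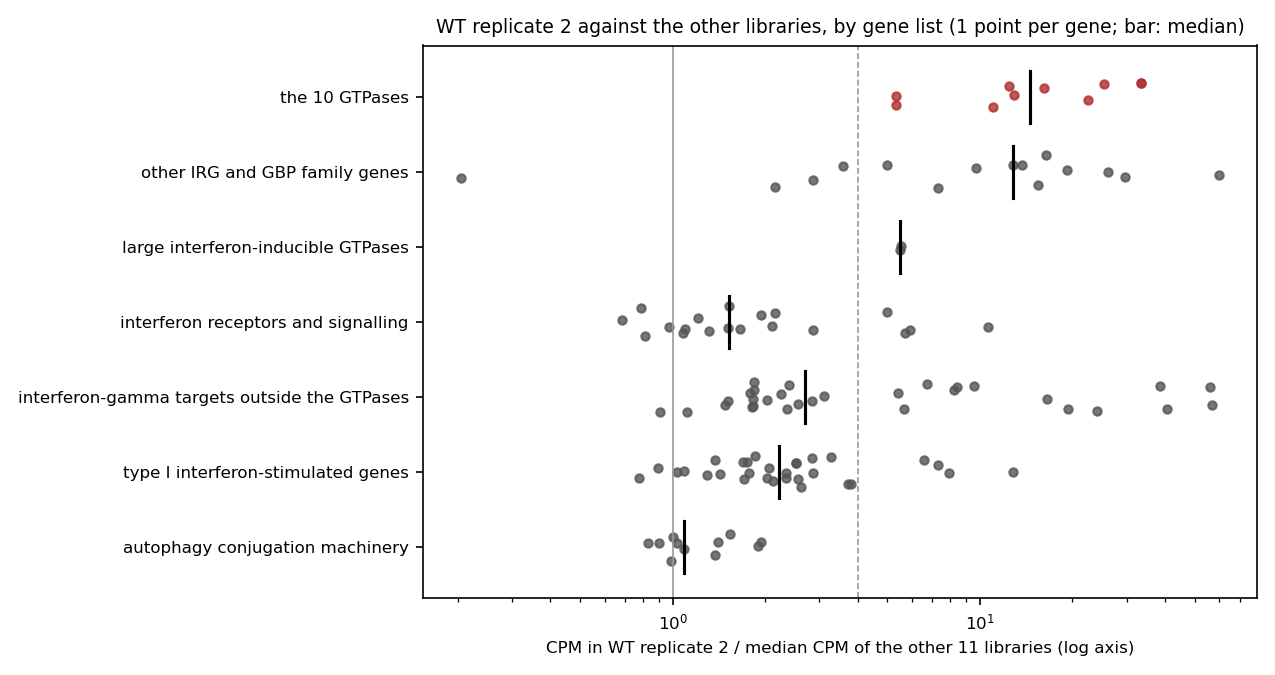
Ratio of CPM in WT replicate 2 to the median of the other 11 libraries (log axis), with 1 point per tested gene, the list's median as a bar and a dashed line at 4. All 10 GTPases, which were picked with their levels known, lie right of that line. So do 11 of 15 other IRG and GBP genes, 4 of 19 receptor and signalling genes and 0 of 11 autophagy genes.

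Among the genes whose log2 CPM followed the members' mean most closely over the 12 libraries were Gbp4 (Pearson's r 0.98), Tgtp1 and Gm12185 (0.97 each), Samhd1 (0.96), Cd274 and Tnfsf10 (0.95 each), and Gbp5, Gm43302 and Tap1 (0.94 each). Over 11 libraries without WT replicate 2 the same genes had 0.91 (Gbp4), 0.74 (Tgtp1), 0.70 (Gm12185), 0.65 (Samhd1), 0.88 (Cd274), 0.82 (Tnfsf10), 0.73 (Gbp5), 0.81 (Gm43302) and 0.59 (Tap1). These r values describe shared libraries, and Gm43302 shares its locus with Gbp6.

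Markers of other cells were measured beside these levels. The T and NK cell list (11 of 12 in the table, 2 tested) summed to 6.93 CPM in WT replicate 2 and 0.633 to 4.20 CPM elsewhere. Cd3e, Cd3d, Cd8a, Cd4 and Ncr1 were at 0 there, while Gzma had 48, Gzmb 42, Nkg7 40 and Klrd1 13 counts. Outside WT replicate 2, Gzma had 60 counts in Hdac2 ECKO replicate 1 and 54 in Ezh2-labelled replicate 1, and Gzmb had 0 in all 11 libraries. Microglia and macrophage markers (14 genes) summed to 76.7 CPM in WT replicate 2, within the others' 47.3 to 105 CPM, with P2ry12, Tmem119 and Mrc1 at 0. B cell markers (4 genes; Cd79b and Ms4a1 among those at 0) were at 1.65 CPM against 0.130 to 5.13 CPM, and neutrophil and monocyte markers (8 genes; Camp and Ccr2 at 0) at 1096 CPM against 561 to 1353 CPM. The part of T or NK cells in the levels of WT replicate 2 was not tested.

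Erythrocyte markers (5 of 5 in the table, none at 0 in WT replicate 2) differed between groups: 36121 to 61357 CPM in WT, 400 to 21652 CPM in Hdac2 ECKO, 2518 to 6662 CPM in the Ezh2-labelled libraries and 510 to 35358 CPM in beta-catenin GOF. WT replicate 2, at 38241 CPM, was within the WT range. Pericyte markers (8 genes) ran from 35.3 to 56.0 CPM in WT, 79.1 to 153 CPM in Hdac2 ECKO, 37.8 to 43.0 CPM in the Ezh2-labelled libraries and 80.9 to 159 CPM in beta-catenin GOF. Astrocyte markers (7 genes; Aqp4, Slc1a2 and Aldoc at 0 in WT replicate 2) were lower in WT, at 24.0 to 36.2 CPM, than in Hdac2 ECKO (50.7 to 76.0 CPM), the Ezh2-labelled libraries (44.2 to 79.8 CPM) and beta-catenin GOF (37.3 to 54.1 CPM). Hdac2 ECKO lay below all WT libraries in microglia and macrophage markers (47.3 to 63.5 against 76.7 to 105 CPM) and in neutrophil and monocyte markers (561 to 726 against 809 to 1096 CPM). The part of these markers in the comparisons against WT was not tested, and no sort date or batch is given in the sources used here.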

How the data were processed

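The authors deposited 1 table with a value per gene and library. It is titled as normalized, but the values were whole numbers with differing totals, and 79.5% to 84.0% of the values from 10 to 50 were even, so the deposited values were treated as raw counts. Per the submitters' processing notes, FastQC, cutadapt, STAR, featureCounts, DESeq2 and mm10 were named; versions, strand and handling of shared reads are not given in the sources used here. Gene positions matched GENCODE M21 on GRCm38 for 98.4% of genes.

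The members, the gene lists and the tests were chosen with earlier results of these data known. Groups and replicate numbers came from the sample titles. Genes averaging 10 counts or more over the 12 libraries were fitted with edgeR 4.0.16 (R 4.3.3; TMM scaling, quasi-likelihood F test, 1 model with a term per group), adjusted by Benjamini-Hochberg over 12577 genes, threshold 0.05; limma was planned only for normalized values. Log2 levels used log2(CPM + 0.5). The floor was 3 counts per library, for counting error only. It takes counts as independent, which the share of even values puts in doubt, so the floor may be too low. Ratios for WT replicate 2 used a denominator of at least 0.0999 CPM, so a ratio at that denominator is a lower bound.

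Named outside the members were, per comparison against WT, up to 6 called list genes with the smallest p, 6 signalling genes always, the highest-level gene per list, and the 10 genes most like the members; others are said to be chosen later. Some genes that this rule or the marker lists name are not reported here. Alternatives were no filter, a filter at 50 counts, median-ratio scaling, library size alone, DESeq2 1.42.0, sample quality weights (limma 3.58.1), a removed length trend, a replicate block and leaving out each library. On simulated counts for Hdac2 ECKO against WT (3 libraries each, 12577 genes, 200 changed) edgeR recovered 62% of genes changed by 2 and 85% of those changed by 3 on the log2 scale, and 2.6% of its calls were unchanged genes. The simulated counts were independent around a common mean per gene, with no outlying library. These rates therefore need not hold for the real libraries. Promoters came from RefSeq (GRCm38.p6). Neither proteins nor Xist and Y-linked genes were looked at.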

Additional observations from a re-analysis of the deposited data

How the results depend on the processing

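Counts below are given in the order genes called, members called and listed interferon genes called, and then the members' median log2 fold change, where that value moved. In Hdac2 ECKO (1157, 4, 28 and −2.25) they were 2279, 9 and 44 with no filter, a median of −1.99 with a filter at 50 counts, and 1826 genes and −2.02 with library size alone, which moves the median of all genes from 0.10 to 0.34. DESeq2 gave 2553 genes and 1 of the 4 members that had an adjusted p, sample quality weights 5374, 7, 52 and −2.13, and a removed length trend 665, 1, 17 and −2.50. Leaving out 1 library gave 0 to 2220 genes, 0 to 7 members, 0 to 35 listed genes and medians from −2.75 to 0.04.

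In the Ezh2-labelled libraries (129, 1, 8 and −2.52) they were 1367, 9 and 42 with no filter, 219 genes and 3 members with a filter at 50 counts, 76 genes and 0 members with median-ratio scaling, and 30, 0 and 3 with library size alone. DESeq2 gave 1280, 2 (of the 5 with an adjusted p) and 26, quality weights 3743, 7 and 47, and a removed length trend 5 listed genes. Leaving out 1 library gave 2 to 2328 genes, 0 to 7 members, 0 to 32 listed genes and medians from −2.97 to −0.54. In beta-catenin GOF (0, 0, 0 and −2.71) they were 157, 9 and 31 with no filter, 38, 1 (of 5) and 6 with DESeq2, 26 genes, 6 listed genes and −2.75 with quality weights, −2.65 with library size alone and −2.75 with the length trend removed. Leaving out 1 library gave 0 to 4 genes, 0 to 3 listed genes and medians from −3.20 to −0.62. Among the mutant groups (13, 0 and 0) they were 1050, 3 and 16 with no filter, 247 genes and 2 listed genes with DESeq2, 3092 and 18 with quality weights, and 4 to 753 genes and 0 to 4 listed genes when 1 library was left out. The causes were not tested.

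Without WT replicate 2, 8 member values reversed, and each ranged over the left-out libraries. In Hdac2 ECKO these were Irgm2 (−2.03 to 0.45), Iigp1 (−3.07 to 0.02), Gbp2 (−2.23 to 0.07), Gbp3 (−1.40 to 0.10), Gbp6 (−2.47 to 0.48) and Gbp7 (−0.90 to 0.85), and in the Ezh2-labelled libraries Gbp6 (−2.74 to 0.21) and Gbp7 (−1.44 to 0.31). Of 401 alternatives over 30 member values, 314 kept direction and side of the threshold, 50 passed it, 29 lost it and 8 reversed, leaving out 16 values to which DESeq2 gave no adjusted p. Combinations of leaving out WT replicate 2 with another choice were added after seeing the data. In the order DESeq2, library size alone, median-ratio scaling, length trend removed and quality weights, the members' median was −0.02, 0.28, −0.02, 0.08 and 0.13 in Hdac2 ECKO, −0.55, −0.48, −0.55, −0.24 and −0.43 in the Ezh2-labelled libraries, and −0.63, −0.55, −0.63, −0.62 and −0.57 in beta-catenin GOF. Members called were 0 in each, except 1 in Hdac2 ECKO with quality weights. Genes called moved to 2, 0 and 0 in Hdac2 ECKO with library size alone, median-ratio scaling and the length trend, to 359, 6, 2, 5 and 246 in the Ezh2-labelled libraries, and to 22 in beta-catenin GOF with DESeq2. Listed genes moved to 16, 0, 0 and 0 in Hdac2 ECKO with the first 4 choices, and to 0, 0, 0 and 3 in the Ezh2-labelled libraries with the last 4.

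Replicate numbers did not pair the libraries: correlations of same-numbered deviations ran from −0.14 to 0.27, and 3 of 18 exceeded 0.1. With the number as a replicate block, Hdac2 ECKO had 1832 genes, 2 members and −1.74, the Ezh2-labelled libraries 536 genes, 0 members and 16 listed genes, beta-catenin GOF −2.32, and the mutant groups 32 genes. Depth limits Gm4841, at 2 counts or fewer in 5 of 12 libraries, and the ligand genes Ifng and Ifnb1.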
